A study of Danio rerio with 6 samples.

Results

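The genes described here are 10 zebrafish immediate early genes, named in advance as egr1, egr2a, egr2b, egr3, egr4, fosab, fosb, junba, junbb and npas4a. The question was whether the lower levels of egr1 and egr4 in hnrnpul1/1l mutants, which were known when the genes were chosen, are shared by other activity-induced genes. A gene was included when a RefSeq transcript in the count files paired with its symbol, and 8 of the 10 genes had such a row, 1 transcript each, among 15455 transcripts in all. No row paired with egr2a or fosb, which were not analysed here. The study compared larvae lacking both zebrafish orthologs of HNRNPUL1, an RNA-binding protein gene, with wild-type larvae at 72 hpf, after growth at 28 °C. Each of the 6 libraries holds polyadenylated RNA from a pool of 8 larvae whose tails had been cut off for genotyping, with 3 pools of wild types and 3 pools of double homozygous hnrnpul1/1l mutants. By the study's methods the mutations are CRISPR insertions with a stop cassette, hnrnpul1 ca54 and hnrnpul1l ca52 unless otherwise noted there. The mutants are described as maternal-zygotic for hnrnpul1l and zygotic for hnrnpul1. The wild types are called siblings in one place and offspring of an hnrnpul1l heterozygote incross in another, so a difference between parents cannot be told apart from the genotype.

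Immediate early genes are transcribed within minutes of a stimulus, without new protein synthesis, when calcium and growth factor signals activate the factors SRF, the ternary complex factors and CREB on their promoters. In neurons they are switched on by firing and are widely used as a record of recent activity, and in other tissues they respond to growth factors, stretch and wounding. Their products are themselves transcription factors. The Egr proteins bind GC-rich sites with zinc fingers, Fos and Jun proteins pair through leucine zippers to form AP-1, and Npas4 is a bHLH-PAS factor that in mammalian neurons responds to calcium entry with little response to growth factors.

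Levels are given as CPM, the estimated count of a transcript relative to its library's total after TMM scaling, a correction for differences in composition between libraries. Library totals were 40891309 to 62580215 estimated counts, so a single count was worth 0.0149 to 0.0268 CPM after TMM scaling. The 8 transcripts held 109 to 3442 counts each in a library. The estimates of the 8 transcripts were whole numbers in all 6 libraries, as were those of 12138 of the 15455 transcripts, and an estimate becomes fractional when reads are divided between transcripts. Levels of different genes are not compared, because transcript lengths were not used. hnrnpul1, the targeted gene with a row, was at 127, 122 and 118 CPM in wild types against 47.7, 45.6 and 22.1 CPM in mutants. No row paired with hnrnpul1l. Mutant pool 2 had the lowest total and stood apart from the other 5 libraries on the first principal component, which held 37.4% of the variance, at -147 against -10.9 to 75.2. Log2 fold changes of the 8 genes that rest on this pool are given with and without it. Ratios of genes and summed levels of lists are given with all pools only. The labels do not say whether pools came from separate clutches, so the p-values measure the spread between these pools.

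All 8 immediate early transcripts had a lower mean in mutants than in wild types, while 50.9% of the 13553 transcripts tested had a log2 fold change below 0. The median log2 fold change of the 8 was -0.70, against -0.01 over all transcripts tested. These figures include egr1 and egr4, whose lower levels in these data were known when the genes were chosen. The other 6 genes had a median of -0.49, and junba, at -0.00, was among them. The clearest differences were in npas4a, at 31.0% of its wild-type mean, and egr4, at 36.8%. Next came egr1, at 48.1%, fosab, at 59.5%, and egr3, at 63.4%. egr2b had 79.5% of its wild-type mean and junbb 91.0%. junba was at 99.9%. Its log2 fold change took the opposite sign under RLE scaling, an alternative to TMM (0.0199), but not under total-count scaling (-0.14). None of the 8, and 0% of all transcripts tested, passed an adjusted p of 0.05 when mutants were set against wild types in edgeR's quasi-likelihood test. At an unadjusted p below 0.05, npas4a and egr4 were lower, 2 of the 8, where 4.61% of all transcripts were lower by that rule. DESeq2 called those 2 genes lower after its own adjustment, against 0.883% of the transcripts it tested. npas4a, egr4 and egr1 were more than 2-fold lower by log2 fold change, as were 7.1% of all transcripts. npas4a, egr4 and egr3 were lower in each mutant pool than in any wild-type pool, which held for 9.08% of all transcripts. Without egr1 and egr4, npas4a was the only gene of the other 6 that was lower at an unadjusted p, in DESeq2 or by more than 2-fold, and npas4a and egr3 were the 2 without overlap. These counts are for all 6 libraries. Without mutant pool 2, fosab was also lower at an unadjusted p below 0.05 in edgeR and by more than 2-fold. In that fit egr1, at -0.71, was less than 2-fold lower. Without mutant pool 3, egr1 was at -1.92, with an unadjusted p of 0.00446 in edgeR. The shares of all transcripts within these limits were not computed with a pool left out. For a single gene, 3 pools against 3 cannot give an exact two-sided permutation p below 0.1.

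**Figure D1:**
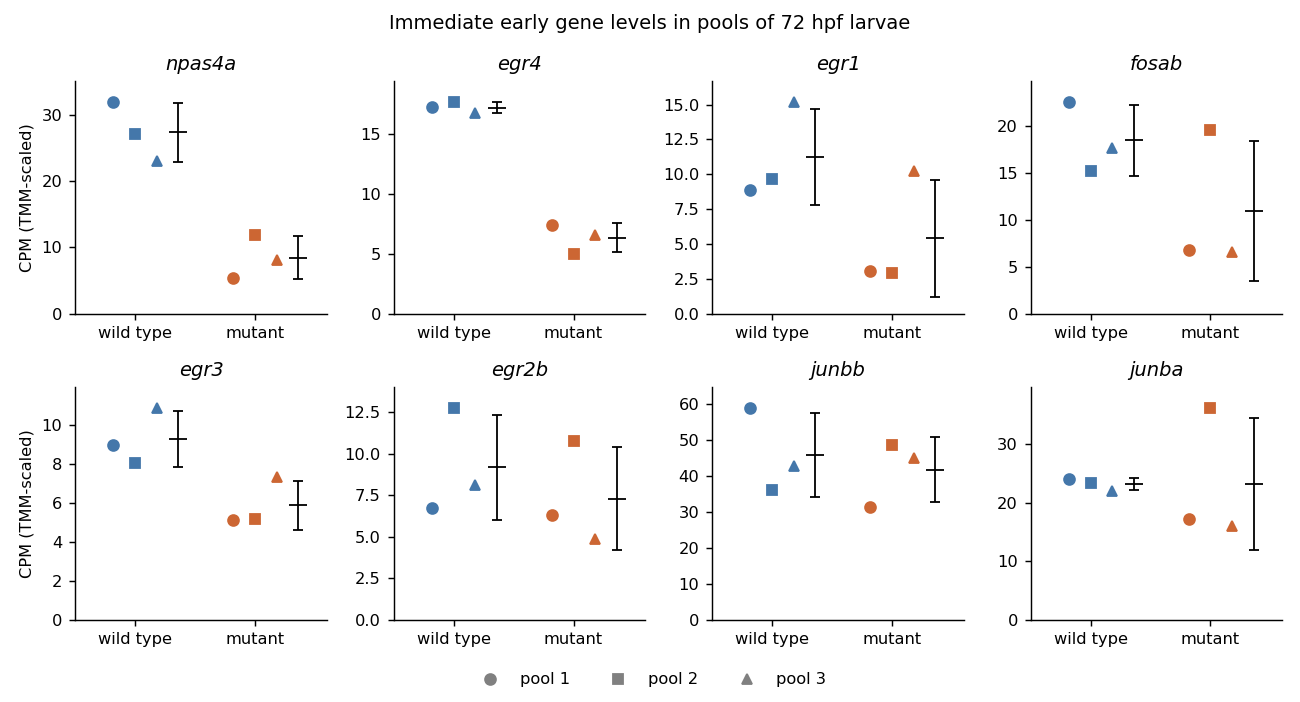
CPM of each immediate early gene in the 3 wild-type pools (blue) and the 3 mutant pools (orange), 1 panel per gene with its own axis from 0, circles, squares and triangles for pools 1, 2 and 3, and bars for the mean and SD. The mutant pools of npas4a lie between 5.39 and 11.8 CPM, below all wild-type pools (23.0 to 31.9 CPM), while those of junba lie on both sides of the wild types.

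npas4a encodes the zebrafish counterpart of mammalian Npas4, which in mammals drives inhibitory synapse formation and Bdnf transcription in active neurons. Its transcript (NM_001045321) was at 31.9, 27.0 and 23.0 CPM in wild types and at 5.39, 11.8 and 8.16 CPM in mutants. All wild-type pools were well above the highest mutant pool. The means were 27.3 ± 4.43 CPM in wild types and 8.46 ± 3.24 CPM in mutants (SD over 3 pools). The log2 fold change was -1.69 (standard error, SE, 0.35, 95% interval -2.49 to -0.89), with an adjusted p of 0.350 in edgeR and 0.00493 in DESeq2. By its unadjusted p, npas4a ranked 45 among the 13553 transcripts. With each library left out in turn, its log2 fold change ran from -1.97 without mutant pool 2 to -1.43 without mutant pool 1.

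The early growth response genes encode zinc finger factors. In mammals Egr1 is the member induced in most cell types, Egr3 and Egr4 are mostly studied in the nervous system and in lymphoid cells, and Egr2 (Krox20) patterns the hindbrain and drives myelination by Schwann cells. egr4 (NM_001114453) was at 17.2, 17.7 and 16.7 CPM in wild types and at 7.41, 5.01 and 6.59 CPM in mutants. The wild-type pools were close together and far above all mutant pools. Its log2 fold change was -1.44 (SE 0.30, 95% interval -2.13 to -0.75), with an adjusted p of 0.350 in edgeR, rank 51 by unadjusted p. With a library left out it stayed between -1.54 and -1.26.

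egr3 (NM_001002647) showed a smaller difference in the same direction, with 8.96, 8.02 and 10.8 CPM in wild types and 5.14, 5.17 and 7.32 CPM in mutants. The groups did not overlap, but the gap between mutant pool 3 and wild-type pool 2 was small. Its log2 fold change of -0.66 (SE 0.35, 95% interval -1.47 to 0.15) had an unadjusted p of 0.0969 and an adjusted p of 0.647 in edgeR. Leaving out single libraries gave estimates from -0.85 to -0.53.

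egr1 (NM_131248) had 8.87, 9.64 and 15.2 CPM in wild types and 3.04, 2.92 and 10.2 CPM in mutants. Mutant pools 1 and 2 were close together, and mutant pool 3 lay within the wild-type range. The pool with the highest egr1 in each genotype was pool 3. The log2 fold change of -1.05 (SE 0.57, 95% interval -2.37 to 0.26, adjusted p = 0.651 in edgeR) was -1.92 without mutant pool 3 (adjusted p = 0.302) and -0.71 without mutant pool 2.

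egr2b (NM_130997), the zebrafish krox20 gene that marks alternate segments of the embryonic hindbrain, had 6.72, 12.7 and 8.09 CPM in wild types and 6.28, 10.8 and 4.85 CPM in mutants. The groups overlapped, and pool 2 was the highest of both genotypes. Its log2 fold change of -0.33 (SE 0.44) had a 95% interval of -1.34 to 0.68. Without mutant pool 2 it was -0.69, and without wild-type pool 2 it was -0.02.

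The AP-1 genes among the 8 are fosab, the zebrafish c-fos ortholog, and the junB pair junba and junbb, whose product in mammals pairs with Fos and is a weaker activator than c-Jun. fosab (NM_205569) had 22.6, 15.2 and 17.7 CPM in wild types and 6.77, 19.6 and 6.61 CPM in mutants. Mutant pools 1 and 3 were below all wild types, and mutant pool 2 lay between wild-type pools 3 and 1. Its log2 fold change of -0.75 (SE 0.47, 95% interval -1.84 to 0.34, adjusted p = 0.724 in edgeR) became -1.43 without mutant pool 2 (adjusted p = 0.239), -0.49 without mutant pool 1 (adjusted p = 0.955) and -0.50 without mutant pool 3 (adjusted p = 0.771). The unadjusted p of fosab in edgeR was 0.150 with all pools and 0.00300 without mutant pool 2.

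junba (NM_213556) had 24.1, 23.4 and 22.1 CPM in wild types and 17.3, 36.2 and 16.0 CPM in mutants. As for fosab, mutant pool 2 was high and the other mutant pools were below all wild types. The means of 23.2 ± 1.01 CPM in wild types and 23.1 ± 11.3 CPM in mutants (SD over 3 pools) differed by far less than the spread between mutant pools. The log2 fold change was -0.00 (SE 0.35, 95% interval -0.80 to 0.80), and it was -0.44 without mutant pool 2 and 0.20 without mutant pool 3. junbb (NM_212750) had 58.8, 36.1 and 42.8 CPM in wild types and 31.5, 48.8 and 45.1 CPM in mutants, and mutant pools 2 and 3 were inside the wild-type range. The estimate of -0.14 (SE 0.27) had a 95% interval of -0.77 to 0.50, so that a change of the size seen in npas4a or egr4 lies outside the intervals of both junB genes.

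**Figure D2:**
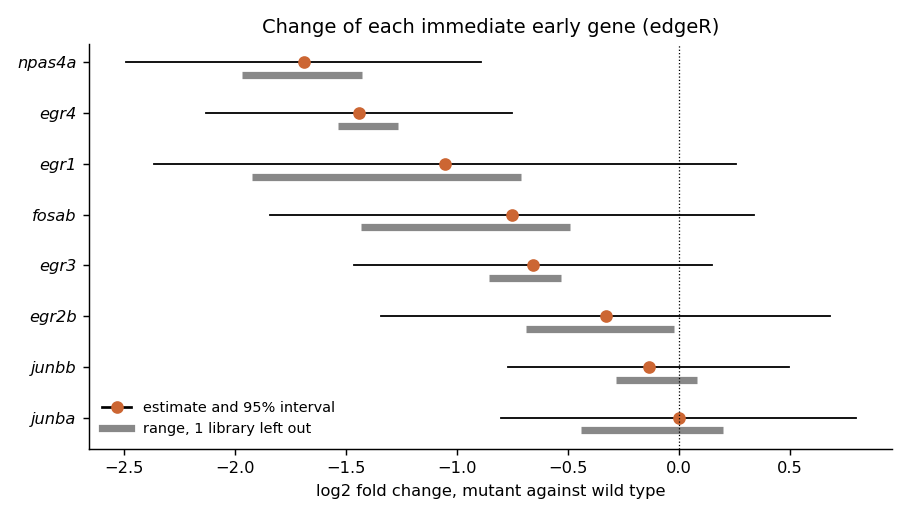
Log2 fold change of each immediate early gene in mutants against wild types from edgeR (orange points, 3 pools per genotype) with its 95% interval (black lines) and the range of estimates when each of the 6 libraries was left out (gray bars). The intervals of npas4a (-2.49 to -0.89) and egr4 (-2.13 to -0.75) lie below 0 and the other 6 include it.

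How the genes differed from one another in their change was described by the log2 ratio of each pair of genes within a library. This ratio does not depend on the scaling between libraries. Of the 28 pairs, 9 had ratios that did not overlap between the genotypes, each with an exact permutation p of 0.1 and an adjusted p of 0.311 over the 28 pairs. Of these 9 pairs, 8 set npas4a or egr4 against a gene other than those 2, as did 12 of the 28 pairs. The pairs share genes and are not independent, and egr4 was known to be lower when the genes were chosen. As npas4a and egr4 had the largest falls, their place in these pairs follows in part from those falls. The share of separated ratios among pairs of other transcripts was not computed. The ratio of npas4a to junba was lower in mutants by -1.65 on the log2 scale and that of npas4a to junbb by -1.62. The corresponding differences for egr4 were -1.36 against junba and -1.33 against junbb, again with no overlap. npas4a and egr4 themselves differed by -0.29, and their ratios overlapped between the genotypes. Ratios of egr1 to each of the other genes overlapped between the genotypes.

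By library, mutant pool 1 was lower than all wild types for all 8 genes, mutant pool 3 for 6 and mutant pool 2 for 4. The share of all transcripts below all wild types in a single mutant pool was not computed, so these counts are a description. They include egr1 and egr4, which were known to be lower when the genes were chosen. Averaged over the 8 genes, the log2 deviation from the wild-type mean was -1.13, -0.57 and -0.80 in mutant pools 1, 2 and 3, against -0.05 to 0.03 in the wild types. Mutant pool 2 was the highest mutant pool for 5 of the 8 genes (npas4a, egr2b, fosab, junba and junbb) and the lowest for egr1 and egr4. npas4a was lowest in mutant pool 1, and egr1 was about equally low in mutant pools 1 and 2 (3.04 and 2.92 CPM). Only egr3, egr4 and npas4a were below all wild types in each of the 3 mutant pools.

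**Figure D3:**
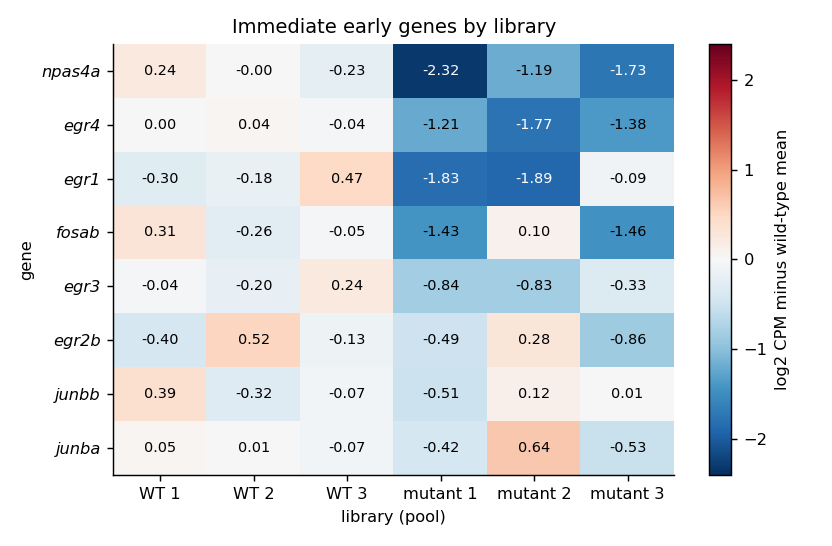
Log2 CPM of each immediate early gene (rows) in each library (columns) minus its mean over the wild types, from blue (lower) to red (higher), with the value printed in each cell. The npas4a and egr4 rows run from -2.32 to -1.19 in the 3 mutants, whereas fosab and junba are at 0.10 and 0.64 in mutant pool 2 and egr1 is at -0.09 in mutant pool 3.

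Other rapidly induced genes were split between lower and higher estimates. Over 64 tested transcripts of other AP-1 and rapid-response genes, 34 had a lower and 30 a higher estimate in mutants, and the median was -0.07. None was called by edgeR or DESeq2 after adjustment, and 3 were lower and 0 higher at an unadjusted p below 0.05. The 3 are 4.69% of the 64, close to the 4.61% over all transcripts. They were fosl2 and maff, 2 of the 10 AP-1 genes, and nr4a2b. In 7 of the 64, every mutant pool was below every wild-type pool, against 9.08% of all transcripts. These 7 held 3 of the 10 AP-1 genes. Every mutant pool was above every wild-type pool in 1 of the 64, against 1045 of the 13553 transcripts tested. fosl2, a Fos-related AP-1 gene, had 42.9 ± 9.39 CPM in wild types and 23.7 ± 7.11 CPM in mutants (SD over 3 pools), a difference of -0.86 on the log2 scale (SE 0.29) and no overlap. nr4a2b, of the Nurr1 family of orphan receptors, had a log2 fold change of -0.89 (SE 0.31), and maff, a small Maf gene, -0.52 (SE 0.21). jun, the c-Jun gene, had 51.8 ± 11.9 and 49.2 ± 7.75 CPM (SD over 3 pools), or -0.07 on the log2 scale (SE 0.24). The log2 fold change was 0.04 (SE 0.36) for ier2a, 0.07 (SE 0.21) for btg2, 0.28 (SE 0.25) for the MAP kinase phosphatase gene dusp1 and 0.77 (SE 0.42) for nr4a1, with overlapping groups in each. It was -0.44 (SE 0.29) for the stress-responsive factor gene atf3, without overlap, and -0.18 (SE 0.62) for nr4a3, with overlap. fosl1a and jund were near 1 CPM in wild types, too low for a stable estimate, and klf9 (-1.97, SE 1.97) and ccn1l1 (1.51, SE 1.54), the extremes of the rapid-response list among genes with a mean of at least 1 CPM, were below 3 CPM. By the same minimum, which holds for the ranges of all lists given here, the extremes of the AP-1 list were fosl2 and mafgb, at 0.36 (SE 0.56).

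**Figure D4:**
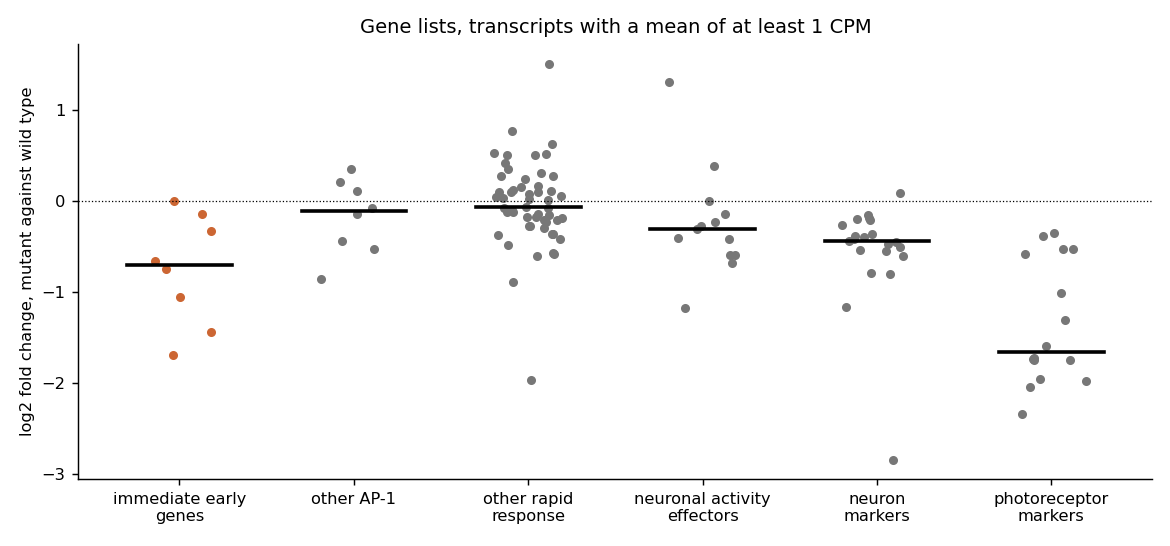
Log2 fold change in mutants against wild types of each transcript with a mean of at least 1 CPM (points) in 6 gene lists, with the median of each list as a bar. The 8 immediate early genes (orange) have a median of -0.70, the 53 other rapid-response genes -0.06, the 21 neuron markers -0.44 and the 16 photoreceptor markers -1.66.

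Genes that act before and after the immediate early genes were counted on the same fit, and none was called after adjustment in edgeR or DESeq2. Over all transcripts tested, 50.9% had a lower estimate, the share to set beside each list in this paragraph. Of 15 effector genes of neuronal activity, most of which encode secreted or synaptic proteins, 12 had a lower estimate. Their median was -0.40, beside -0.44 for the neuron markers described below. The synaptic pentraxin gene nptx1l was the only one of the 15 with an unadjusted p below 0.05 in edgeR, where 4.61% of all transcripts were lower. It was at 53.2 ± 2.31 CPM in wild types and 35.4 ± 8.70 CPM in mutants (SD over 3 pools). In 2 of the 15, nptx1l and the postsynaptic scaffold gene homer1b (-0.40, SE 0.20), every mutant pool was below every wild-type pool. That held for 9.08% of all transcripts. Above the minimum of 1 CPM the list ran from inhbab (-1.18, SE 0.97) to adcyap1a (1.31, SE 0.88), both below 3 CPM. bdnf, the neurotrophin gene that Npas4 activates in mammals, had 87.8, 84.2 and 41.5 CPM over its transcripts in wild types and 35.1, 106 and 47.8 CPM in mutants, with overlap and an exact permutation p of 0.9. Its counts moved between transcripts, with NM_001308648 at 33.8 and 18.1 CPM in mutant pools 1 and 2 and at 0 in the other 4 libraries. Among the upstream relays, 5 of 7 SRF and ternary complex factor genes, 7 of 9 CREB and MEF2 genes and 8 of 16 MAP kinase relay genes had a lower estimate, and none of these passed the unadjusted threshold. Among genes with a mean of at least 1 CPM, the SRF list ran from srfa (-0.94, SE 1.99) to fhl2a (0.38, SE 0.38), and srfb, below that mean, was at -1.79 (SE 1.66). By the same minimum the CREB and MEF2 list ran from crtc1a (-0.97, SE 2.04) to mef2b (0.27, SE 0.38), and the lowest relay gene was rps6ka3b (-1.25, SE 0.89). nab1a, an Egr co-repressor gene, had a log2 fold change of -0.30 (SE 0.37), nab2 was below 1 CPM, and nab1b was below the filter on low counts. Of the genes for partners of bHLH-PAS factors, all 4 tested had a lower estimate, from bmal2 (-1.26, SE 0.81) to arnt2 (-0.17, SE 0.63), and none passed the unadjusted threshold.

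For egr2b and egr1, lists of tissues in which these genes are known to act were also counted. Of 10 rhombomere genes, 5 were lower and 5 higher, from epha4b (-0.85, SE 0.72) to hoxa2b, which had 8.86 ± 1.13 CPM in wild types and 16.7 ± 1.05 CPM in mutants (SD over 3 pools) without overlap. Of 10 tendon and connective tissue genes, a tissue in which Egr1 acts in mice, 8 had a higher estimate, and the median was 0.47. None of the 10 was called after adjustment in edgeR or DESeq2. The range was from the tendon factor gene scxa (-0.34, SE 0.36) to thbs4b (0.66, SE 0.26). thbs4b was the only one with an unadjusted p below 0.05 in edgeR (0.0331), and its groups overlapped. A link of these genes to egr1 was not tested. Of 10 heat shock genes 7 had a lower estimate, with a median of -0.55, where 50.9% of all transcripts were lower. DESeq2 called 2 of the 10 lower, against 0.883% of the transcripts it tested. One of the 2 was hspa1b, which was near the floor, at 3.57, 1.11 and 0.463 CPM in wild types and 0 CPM in each mutant pool. Above a mean of 1 CPM the list ran from hsp90aa1.2 (-1.17, SE 0.26), the other of the 2, to hspa8b (0.89, SE 0.57).

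Markers of neurons and photoreceptors mostly had lower estimates in mutants, and those of muscle and blood mostly higher ones. In pooled larvae, fewer cells of a type cannot be told apart from less RNA per cell. Of 21 neuron markers, 20 had a lower estimate in mutants (median -0.44), where 50.9% of all transcripts were lower. At an unadjusted p below 0.05 in edgeR, 3 of the 21 were lower, against 4.61% of all transcripts. The summed level of the 21 was 5307 to 7074 CPM in wild types. It was 3534, 6377 and 3838 CPM in mutant pools 1, 2 and 3, and only pool 2 lay within the wild-type range. The 21 markers ran from slc17a7a (-2.85, SE 1.56) to syt1b (0.09, SE 0.87). In 3 of the 21 every mutant pool was below every wild-type pool, against 9.08% of all transcripts. These were snap25b, stmn2a and sypb, which act in synaptic vesicle release and axon growth. Of them, stmn2a had an unadjusted p of 0.0784 in edgeR. DESeq2 called 1 of the 21 lower, snap25b, against 0.883% of the transcripts it tested. All 16 photoreceptor markers had a lower estimate, with a median of -1.66, from the opsin gene opn1lw1 (-2.34, SE 0.76) to pde6a (-0.35, SE 0.67). At an unadjusted p below 0.05 in edgeR, 9 of the 16 were lower, against 4.61% of all transcripts. In 13 of the 16 every mutant pool was below every wild-type pool, against 9.08% of all transcripts. DESeq2 called 3 of the 16 lower, against 0.883% of the transcripts it tested. The summed level of the 16 was 7874 to 11406 CPM in wild types and 1316 to 4950 CPM in mutants. In the other direction, 12 of 16 skeletal muscle markers (median 0.29, from atp2a1 at -0.40 to tnnt3a at 1.13) and 10 of 12 blood and macrophage markers (median 0.86, from spi1b at -0.46 to lyz at 2.19) had a higher estimate. DESeq2 called 1 of the muscle markers (tnnt3a) and 2 of the blood markers (hbbe1.1 and lyz) higher, against 97 of the 13246 transcripts it tested. The summed levels were 18677 to 36852 CPM in wild types and 22110 to 47178 CPM in mutants for muscle, and 645 to 1000 CPM and 901 to 2164 CPM for blood. Of the tested markers in these lists, slc17a7a was the only one at 0 in a library, mutant pool 2.

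Per 1000 CPM of neuron markers, npas4a stood at 5.24, 3.82 and 4.34 in the wild-type pools and at 1.53, 1.86 and 2.13 in the mutant pools. Its level was thus lower in every mutant pool relative to these markers too, by -1.28 on the log2 scale. egr4 stood at 2.83, 2.50 and 3.15 in wild types and at 2.10, 0.786 and 1.72 in mutants, without overlap and -0.99 apart. These ratios weight the abundant markers. When each neuron marker counted equally, as the mean log2 deviation of the list, the differences were -0.99 for npas4a and -0.70 for egr4, and the pools of the genotypes overlapped for both genes. A small offset was added to each CPM there, so that a level of 0 could be used. slc17a7a, at 0.235 and 0 CPM in mutant pools 1 and 2, therefore weighs heavily in the means of those pools. Whether the overlap rests on this marker was not tested. For the remaining genes, ratios to the neuron markers overlapped except for junba, which was higher in mutants by 0.36 and overlapped with equal weights. Per 1000 CPM of photoreceptor markers, npas4a stood at 2.80, 3.04 and 2.92 in wild types and at 4.095, 3.48 and 1.65 in mutants, a difference of -0.03. egr4 stood at 1.51, 1.99 and 2.12 and at 5.63, 1.47 and 1.33, a difference of 0.26. Against the photoreceptor markers the pools of both genes overlapped, while egr3, junba and junbb were higher in every mutant pool, the junB pair by 1.62 and 1.59. With equal weights egr3 and junba overlapped there too, and junbb did not. Among mutants, the summed photoreceptor level was lowest in pool 1 and highest in pool 3. npas4a was lowest in mutant pool 1 and highest in mutant pool 2, and egr4 was highest in mutant pool 1 and lowest in mutant pool 2. The part of a shift in cell types in the levels of these genes was not tested.

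**Figure D5:**
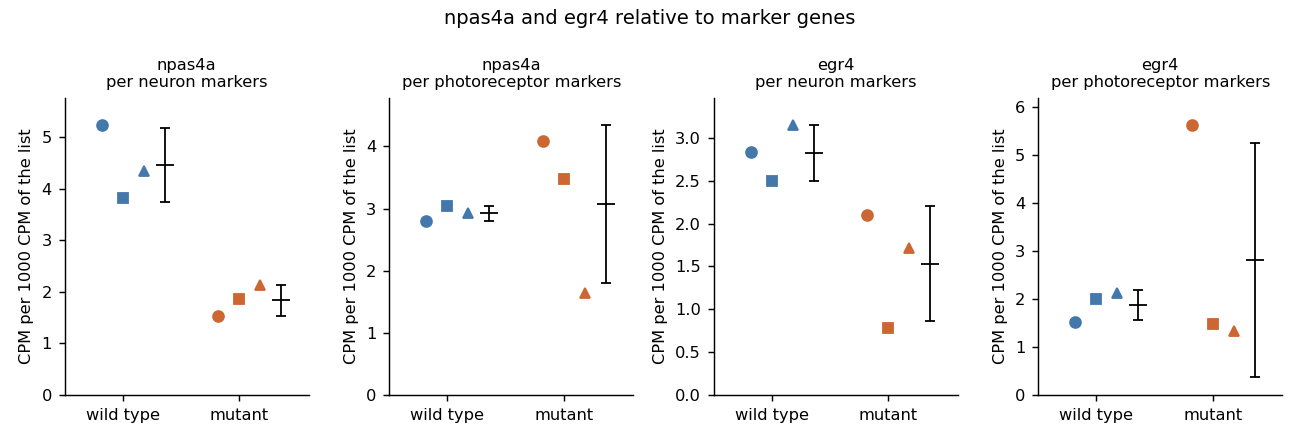
Level of npas4a and egr4 in each pool as CPM per 1000 CPM of neuron markers or of photoreceptor markers (symbols, colours and bars for the mean and SD as for the levels by gene). Relative to neuron markers the mutant pools of npas4a (1.53 to 2.13) lie below the wild types (3.82 to 5.24), and relative to photoreceptor markers the genotypes overlap.

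The genes most like the immediate early genes in their pattern over the 6 libraries were sought among 9776 other transcripts with a mean of at least 5 CPM, by Pearson's correlation with the mean standardized log2 CPM of the 8 genes. The 5 highest were slc25a47a, si:ch211-225b11.1, ndrg4, ccdc62 and opn4.1, with r between 0.987 and 0.994. With 6 points that share library and genotype, 207 transcripts exceeded 0.9, so the order among them is a description. Of these 5, ndrg4 had 935 ± 64.6 CPM in wild types and 459 ± 150 CPM in mutants (SD over 3 pools). The melanopsin gene opn4.1, which encodes a light-sensing opsin, had 65.7 ± 8.78 and 36.1 ± 8.48 CPM (SD over 3 pools). Lower values in mutants follow from how these 5 were chosen.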

How the data were processed

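Per the file headers, the authors deposited 1 table of estimated counts per library, per RefSeq transcript, not scaled for depth or length, from strand-specific paired-end libraries. The submitters' processing notes name bcl2fastq 2.20.0.422, kallisto 0.42.4 and the build danRer10 without roles, and the transcript release is not given in the sources used here. These expected counts were rounded to whole numbers, since 15.8% to 18.3% of values in a library were fractional. NCBI RefSeq's GRCz12tu annotation, used for names only, gave symbols to 14740 of 15455 transcripts.

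Mutants were compared with wild types in edgeR 4.0.16 (R 4.3.3) with filterByExpr, TMM scaling, the quasi-likelihood F test and p-values adjusted by Benjamini-Hochberg over 13553 transcripts. The standard error is the log2 fold change divided by the square root of F. Log2 CPM used a prior count of 2. A gene with several transcripts was represented by the one with the largest mean count. The fit was checked on simulated data. The study's own test used RPKM values, which were not used here. Alternatives were DESeq2 1.42.0, limma-voom (limma 3.58.1), RLE or total-count scaling, other filters, per-gene sums, a block for the replicate number, each library left out and, chosen after seeing the data, 1 surrogate variable from sva 3.50.0.

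The members and the 15 other lists were chosen with earlier results of these data known. Named were all members, the targeted genes, the lowest and highest of each list at a mean of at least 1 CPM, 18 further genes whatever their value (ier2b had no row) and the 5 transcripts most like the members. Other genes (maff, nr4a2b, nptx1l, homer1b, snap25b, stmn2a, sypb, hbbe1.1 and hspa1b) and the ratios of members to each other and to markers were chosen after values were seen. A result that this rule would name is not reported here.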

Additional observations from a re-analysis of the deposited data

How the results depend on the processing

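The count of immediate early genes called was 0 in edgeR and 0 in every alternative except DESeq2, which called 2 (egr4 at -1.42 and npas4a at -1.67). An unadjusted p below 0.05 gave 2 in edgeR, 4 in limma-voom (with egr1 and fosab) and 3 with 1 surrogate variable (with fosab). It gave 2 or 3 with each library left out. The share of all transcripts at an unadjusted p below 0.05 was computed for the main edgeR fit only, not for any alternative. Over all transcripts the count of 0 became 214 in DESeq2, 1191 at an unadjusted p and 11 with 1 surrogate variable, and it was 0 to 1 with each library left out, the 1 coming without mutant pool 3. The median log2 fold change of the 8 genes lay between -0.86 and -0.68 over the other alternatives and between -0.81 and -0.51 with each library left out. npas4a and egr4 kept their direction throughout. Total-count scaling moved the median of all transcripts to -0.13, and the median of the 8 genes to -0.84. The log2 fold change of junba turned to 0.020 (0.0199 under RLE scaling, 0.0197 in DESeq2), to 0.03 without wild-type pool 1, 0.00 without wild-type pool 2, 0.18 without mutant pool 1 and 0.20 without mutant pool 3, a range of -0.44 to 0.20. That of junbb turned to 0.0825 without wild-type pool 1 and 0.06 without mutant pool 1, a range of -0.28 to 0.0825. The cause was not tested. The labels do not say whether replicate numbers pair the samples, and the main fit did not pair them. The deviations of same-numbered pools correlated at -0.09, 0.13 and 0.38, and those of differently numbered pools at -0.37 to 0.23. With 3 pools per genotype these values cannot decide whether the pools are paired. With the number as a block, the count of immediate early genes called was 0, 3 had an unadjusted p below 0.05 (egr1 at -1.28, egr4 and npas4a), and the median of the 8 genes was -0.81. Depth limits no value of the 8 genes, which held at least 109 counts.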
